A study of Mus musculus with 6 samples.

Results

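The genes described are 9 chemokine receptors of regulatory T cells (Tregs, CD4 T cells that express FOXP3 and hold immune responses in check), named by symbol as Ccr2, Ccr4, Ccr6, Ccr7, Ccr8, Ccr9, Cxcr3, Cxcr4 and Cxcr5. They were matched to 9 of the 53379 Ensembl identifiers in the deposited count tables. All 9 passed the filter on low counts, which left 20475 genes to test. RNA was sequenced from Tregs sorted by flow cytometry from C57BL/6 mice aged 3 months, with 3 libraries of genotype Foxp3YFP-CrexJunb+/+ (WT) and 3 of genotype Foxp3YFP-CrexJunbFlox/Flox (KO). Both groups carry the Foxp3YFP-Cre allele, in which Cre and a yellow fluorescent protein are made under the control of Foxp3, so that floxed Junb is cut in cells that express Foxp3. JunB, its product, is among the proteins that pair to form the transcription factor AP-1. The labels give neither the organ nor the sorting gate, and they do not tell whether each library is a different animal, so the p-values rest on the scatter among libraries, and that scatter may be technical.

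Chemokine receptors span the cell membrane several times and signal through inhibitory G proteins, which turn a gradient of a chemokine outside the cell into directed movement. Which receptors a Treg carries decides where it can go: CCR7 and CXCR4 guide cells into and within lymphoid organs and bone marrow, CXCR5 guides them into B cell follicles, and CCR4, CCR6, CCR8, CXCR3, CCR2 and CCR9 guide them to barrier tissues, the gut or sites of inflammation. Resting Tregs are known for CCR7, and effector Tregs of tissues and tumours for CCR8 and CCR4. Several of these receptors are also carried by other blood cells, CCR2 by monocytes, CCR9 by plasmacytoid dendritic cells and thymocytes, and CCR7, CXCR5 and CCR6 by B cells.

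Library totals lay between 33784183 and 41231173 counts. Junb stood at 84.7 ± 6.32 CPM (counts scaled to the effective size of each library) in WT and at 54.7 ± 4.38 CPM in KO (mean ± SD, n = 3, as for all means below), 64.5% of the WT level, and such counts cannot tell floxed from other stretches of Junb. The list of 12 Treg markers, Foxp3 among them, was detected in every library, with a summed level of 2565 to 2903 CPM in WT and 1223 to 2720 CPM in KO. KO replicate 1 had the lowest of these sums and the highest sum of 10 conventional CD4 T cell markers, 1824 CPM, where the other KO libraries had 1330 and 1032 CPM and WT had 984 to 1157 CPM. The deposited tables carry a number in their names that parts the libraries into set A (WT replicates 1 and 2, KO replicate 2) and set B (WT replicate 3, KO replicates 1 and 3). Its meaning was not given in the sources used here, and differences within each set stand beside the results.

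The transcripts of the 9 receptors differed widely in level. Per kilobase of merged exons, Ccr7 was highest in WT at 126 ± 14.3 CPM per kilobase, followed by Cxcr3 at 78.5 ± 8.52, Cxcr5 at 25.8 ± 4.25 and Ccr8 at 25.3 ± 3.41 CPM per kilobase. Ccr6 followed at 12.8 ± 2.37, Cxcr4 at 7.64 ± 1.14, Ccr2 at 6.04 ± 3.53, Ccr4 at 4.58 ± 0.873 and Ccr9 at 1.56 ± 0.848 CPM per kilobase. The WT ranges of Cxcr5 and Ccr8 overlapped, as did those of Cxcr4 and Ccr2 and of Ccr2 and Ccr4, so these neighbours in the order did not differ beyond their spread. The other neighbours did not overlap in WT. Ccr7 and Cxcr3 together made up 69.2% to 73.7% of the summed level of the 9 receptors in WT libraries and 73.2% to 82.2% in KO libraries. In KO the first 4 ranks by mean were held by the same genes in the same order. Ccr2 stood at rank 5, above Ccr6 and Cxcr4, at 9.62 ± 1.899 CPM per kilobase. By library, Ccr2 was above Ccr6 only in KO replicate 1 (8.22 against 2.55 CPM per kilobase). Ccr6 was the higher in KO replicate 2 (13.2 against 11.8) and KO replicate 3 (9.21 against 8.86). The level of Ccr9 depends most on the length used, since its annotated exons add up to 10260 bases over 6 transcripts and its longest transcript has 5197 bases. With that length Ccr9 stood at 3.08 ± 1.68 CPM per kilobase in WT and all 9 ranks were kept.

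**Figure D1:**
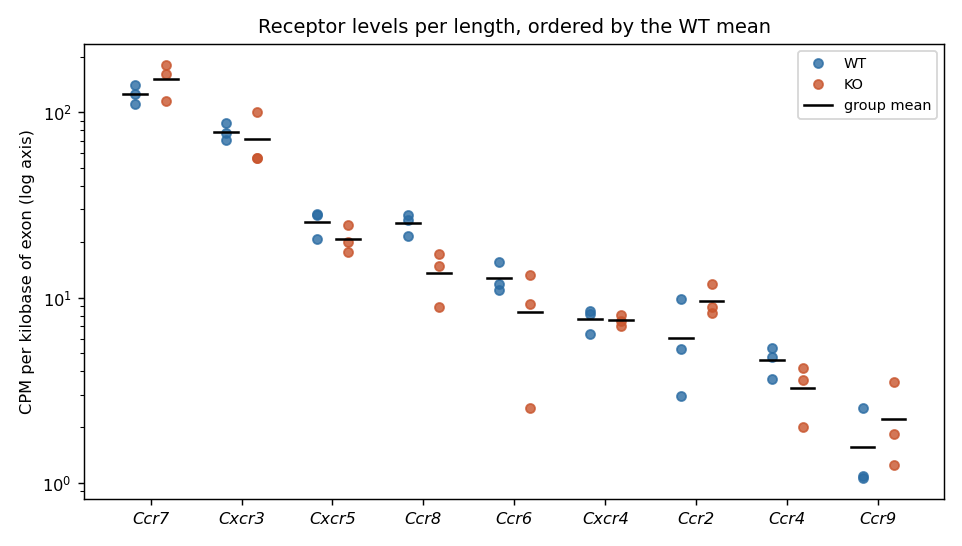
Levels of the 9 receptors in CPM per kilobase of merged exons on a log axis, with a point for each WT (blue) or KO (orange) library and a bar at each group mean. Ccr7 and Cxcr3 stand above the other 7 genes in every library, and Ccr8 is the gene in which all KO points lie below all WT points.

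The comparison of KO with WT asked whether these receptors differ in level when Junb is floxed in Tregs. By edgeR's quasi-likelihood test 0 of the 9 receptors passed an adjusted p of 0.05, against 0% of all 20475 genes, and by DESeq2 0 of 9 passed, against 0.272% of the 23198 genes that had an adjusted p. At an unadjusted p under 0.05, edgeR, DESeq2 and limma-voom each had 1 receptor, Ccr8, beside 2.88%, 3.69% and 3.66% of the genes they tested, and limma-voom called 0 genes after adjustment. Fitted levels were lower in KO for 6 receptors (Ccr4, Ccr6, Ccr8, Cxcr3, Cxcr4 and Cxcr5), as for 49.1% of all genes, and higher for 3 (Ccr2, Ccr7 and Ccr9). Their log2 differences (KO minus WT) had a median of -0.13, and those of all genes 0.005. Of the 9 receptors only Ccr8 had KO libraries that did not overlap the WT libraries, as had 4.07% of all genes in that direction. Junb, the floxed gene, was also lower in every KO library than in any WT library. The edgeR p of Junb was 0.00163 before adjustment and 0.9999 after it, so edgeR did not call the floxed gene either. DESeq2 did call Junb, with an adjusted p of 0.00417. A count of 0 called by edgeR therefore cannot show that a receptor did not differ. In bulk RNA, fewer cells of a type and less RNA per cell cannot be told apart.

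**Figure D2:**
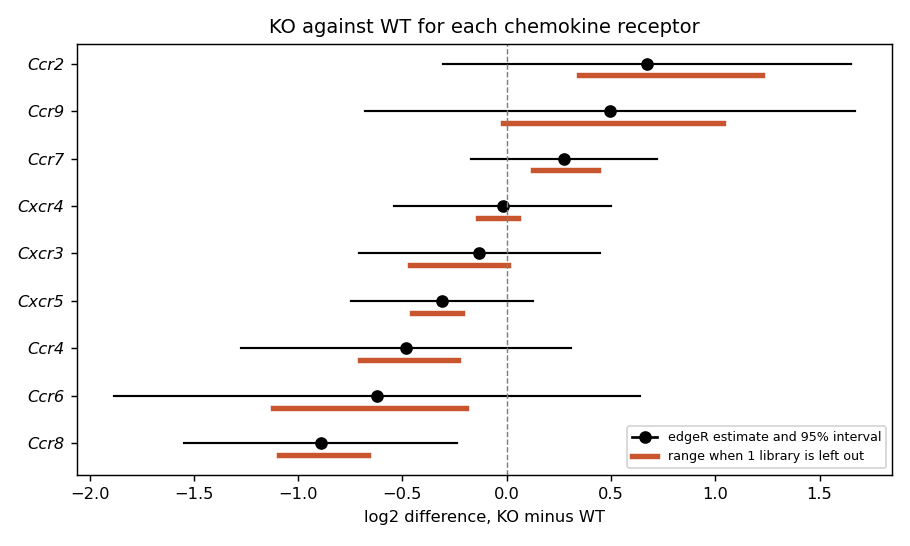
Log2 difference (KO minus WT) of each receptor on the horizontal axis, with the edgeR estimate (point), its 95% interval (black line) and the range of estimates when 1 library is left out (orange bar). The interval of Ccr8, from -1.55 to -0.24, lies below 0, and those of the other 8 receptors span 0.

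Ccr8 was lower in every KO library than in any WT library. CCR8 binds the chemokine CCL1 and is carried by effector Tregs in tissues. The gene (ENSMUSG00000042262.5) lies on chromosome 9 of GRCm38, positions 120092114 to 120094906 on the plus strand, in 1 annotated transcript. By replicate, from 1 to 3, the WT libraries had 30.9, 25.2 and 32.9 CPM of Ccr8 and the KO libraries 10.5, 17.4 and 20.2 CPM. KO replicate 1 was the lowest of the 6, and no KO library reached the WT range. The means were 29.7 ± 4.003 and 16.0 ± 4.97 CPM, a KO level of 53.9% of WT. The log2 difference was -0.89 (SE 0.28), with an edgeR p of 0.0148 before adjustment and 0.9999 after it, and an exact permutation test (two-sided) gave p = 0.1, below which 3 against 3 libraries cannot go. DESeq2 gave Ccr8 a p of 0.00287 before adjustment and 0.318 after it. Within sets A and B the log2 difference was -0.67 and -1.15, and it was -0.67 without KO replicate 1.

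Of the 12 Treg markers 11 had lower levels in KO (median log2 difference -0.43), as had 12 of 13 effector Treg genes (-0.49), while 9 of 12 resting Treg genes had higher ones (0.17), all with 0 called. Ccr8 was also set against the 12 Treg markers within each library, a choice made after the values were seen. As a share of the summed CPM of these markers, Ccr8 made up 1.06%, 0.983% and 1.14% in WT and 0.858%, 0.808% and 0.741% in KO, by replicate number. On this scale too all KO libraries lay below all WT libraries, and KO replicate 1 no longer stood lowest, while the groups overlapped for each of the other 8 receptors. The means were 1.06 ± 0.0773% and 0.802 ± 0.0587%, with a log2 difference of -0.40 and an exact permutation p of 0.1. On the same scale the groups did not overlap, with KO lower, for 0.562% of all genes tested, and with KO higher for 14.2%. Since the sum itself was 0.53 lower in KO on the log2 scale, the median gene had a difference of 0.535 on this scale. Against Foxp3 alone, the count ratio of Ccr8 was 0.781, 0.77 and 0.899 in WT and 0.374, 0.591 and 0.517 in KO, again without overlap. The share of all genes without overlap on that scale was not counted. Foxp3 itself stood at 36.3 ± 3.41 CPM in WT and 32.2 ± 5.97 CPM in KO, so this ratio is no separate support.

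**Figure D3:**
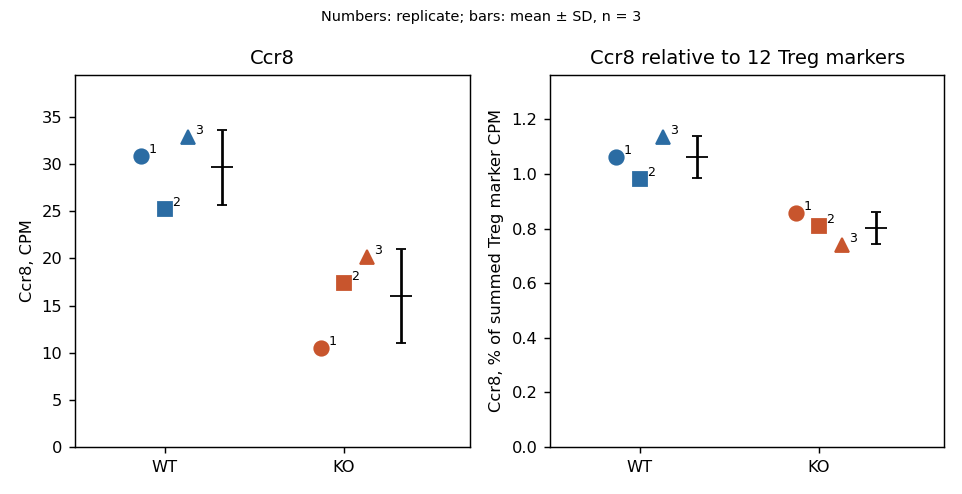
Ccr8 by library in CPM (left) and as a percentage of the summed CPM of 12 Treg markers (right), with numbers for replicates and bars for mean ± SD. On both axes, which start at 0, the 3 KO libraries lie below the 3 WT libraries, and KO replicate 1 is the lowest on the left (10.5 CPM) and the highest of the KO libraries on the right (0.858%).

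The genes whose profile over the 6 libraries was most like that of Ccr8 were Ggt7, a member of the gamma-glutamyltransferase family, Gpr83, a G protein-coupled receptor that is itself among the 12 Treg markers, and Washc5, a subunit of the WASH complex that acts on actin at endosomes. Their root mean square differences from the centred log2 profile of Ccr8 were 0.119, 0.142 and 0.142, where Ccr8 itself spread by 0.544 around its mean, among 10202 genes with a mean of at least 10 CPM. Gpr83 stood at 102 CPM in WT and 64.5 CPM in KO. Ccl1, the gene of a CCR8 ligand, was low, at 2.23 ± 1.84 CPM in WT and 2.26 ± 1.15 CPM in KO.

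Ccr4 and Ccr6 had lower means in KO with libraries that overlapped. CCR4 binds CCL17 and CCL22 and takes Tregs to skin and other tissues, and CCR6 binds CCL20 at mucosal surfaces. Ccr4 (ENSMUSG00000047898.7, chromosome 9, 114490316 to 114504916, minus strand) had 11.2, 14.9 and 16.4 CPM in WT libraries and 6.23, 12.97 and 11.2 CPM in KO libraries. KO replicate 1 was the lowest by far, KO replicate 3 was level with the lowest WT library and KO replicate 2 lay inside the WT range. The log2 difference of Ccr4 was -0.49 (SE 0.33, 95% interval -1.28 to 0.31, edgeR adjusted p = 0.9999), and -0.24 without KO replicate 1. Ccr6 (ENSMUSG00000040899.13, chromosome 17, 8236043 to 8257141, plus strand) stood at 25.6, 36.0 and 27.5 CPM in WT and at 5.91, 30.6 and 21.4 CPM in KO. KO replicate 1 again stood far below the rest, while KO replicate 2 lay inside the WT range. The log2 difference of Ccr6 was -0.62 (SE 0.53, interval -1.88 to 0.64, edgeR adjusted p = 0.9999). It was -0.20 without KO replicate 1 and -1.12 without KO replicate 2. Within set A the differences of Ccr4 and Ccr6 were 0.007 and 0.012, and within set B, which holds KO replicate 1, they were -0.94 and -1.24. As a share of the summed Treg markers Ccr4 was 0.511 ± 0.109% in WT and 0.508 ± 0.0959% in KO, a log2 difference of -0.002, and that of Ccr6 was 1.08 ± 0.282% and 0.898 ± 0.48%, a log2 difference of -0.37, with groups that overlapped for both.

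The promoters of Ccr4 and Ccr8, the CCR receptors known for effector Tregs, were read for the AP-1 letters TGANTCA, which are the same on both strands, and for the related letters TGACGTCA. RefSeq's table for GRCm38.p6 matched 7 of the 9 receptors, with 8 windows of 300 bases from 250 before to 50 after a start, and did not match Ccr7 and Cxcr5. TGANTCA occurred in 1 of the 8 windows, that of Ccr4, against 7.79% of all 32544 windows of that length, and TGACGTCA in 0 of the 8, against 1.80% of all windows. In Ccr4 the match begins 143 bases before the start. The stretches printed here run 5′ to 3′ on the gene's strand up to the first annotated exon base, at chr9:114496563-114496794 (minus strand) for Ccr4 and chr9:120091883-120092113 (plus strand) for Ccr8, with the TGANTCA match in capitals.
Ccr4: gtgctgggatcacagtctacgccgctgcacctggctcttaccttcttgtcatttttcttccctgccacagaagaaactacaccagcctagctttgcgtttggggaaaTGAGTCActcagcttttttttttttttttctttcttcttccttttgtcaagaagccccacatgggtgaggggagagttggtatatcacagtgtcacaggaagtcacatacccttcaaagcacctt
Ccr8: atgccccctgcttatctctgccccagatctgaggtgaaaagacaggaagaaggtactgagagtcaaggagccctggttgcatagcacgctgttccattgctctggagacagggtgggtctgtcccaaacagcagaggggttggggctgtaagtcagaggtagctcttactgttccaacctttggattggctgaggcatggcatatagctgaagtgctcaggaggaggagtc
The stretch of Ccr4 lies inside the span of the annotated gene, between exons, and that of Ccr8 ends just before the gene. These letters describe the windows, and no binding was measured here.

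Cxcr3, the receptor for the interferon-induced chemokines CXCL9, CXCL10 and CXCL11, was the second most abundant of the 9 per length. It lies on chromosome X (ENSMUSG00000050232.6, 101731535 to 101734269, minus strand). Cxcr3 stood at 151, 134 and 122 CPM in WT and at 98.5, 98.7 and 174.5 CPM in KO. KO replicates 1 and 2 lay below all WT libraries and KO replicate 3 above all of them, with an SD of 43.9 CPM in KO and 14.8 CPM in WT. The log2 difference was -0.13 (SE 0.24, 95% interval -0.71 to 0.45, edgeR adjusted p = 0.9999). It was -0.47 without KO replicate 3 and 0.008 without KO replicate 2, and within sets A and B it was -0.53 and 0.10. Relative to the summed Treg markers it was 0.35, below the 0.535 of the median gene on that scale. KO replicate 3 was also the library with the highest sum of 10 CD8 T and NK cell markers, 219 CPM, where the other KO libraries had 202 and 122 CPM and WT had 88.3 to 181 CPM, and 9 of these 10 markers had higher levels in KO. Nkg7, a gene of cytotoxic granules, made up 123.8 of the 219 CPM. Without Nkg7, the other 9 markers summed to 50.6, 137 and 42.5 CPM in WT and to 125.7, 100.7 and 95.2 CPM in KO, and KO replicate 3 was the lowest KO library. Klre1, an NK cell receptor gene, had no count in WT replicate 3. The part of such cells in the level of Cxcr3 was not tested. Among the CXCR3 ligands, Cxcl10 was detected in all libraries at 16.7 ± 4.84 CPM in WT and 13.7 ± 1.98 CPM in KO.

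The receptors of lymphoid organs are Ccr7, Cxcr5 and Cxcr4, and 0 of these 3 were called. CCR7 binds CCL19 and CCL21 and brings T cells into lymph nodes. Ccr7 (ENSMUSG00000037944.8, chromosome 11, 99144196 to 99155077, minus strand) stood at 276.5, 249.6 and 219.8 CPM in WT and at 358, 318 and 227 CPM in KO. KO replicates 1 and 2 lay above all WT libraries and KO replicate 3 inside their range. Ccr7 differed by 0.27 on the log2 scale (SE 0.19, interval -0.17 to 0.72, edgeR adjusted p = 0.9999), by 0.13 without KO replicate 1 and by 0.44 without KO replicate 3. Within sets A and B Ccr7 differed by 0.27 and 0.37. The summed markers of conventional CD4 T cells, 10 of 10 with a higher mean in KO and 0 called, also stood highest in KO replicate 1 and next in KO replicate 2. For 2 of the 10, Il7r and Cd40lg, every KO library lay above every WT library, as for 3.68% of all genes. The list shares 4 of its 10 genes (Tcf7, Lef1, Satb1 and Dapl1) with the resting Treg list, and these made up 1257 of the 1824 CPM in KO replicate 1. The other 6 summed to 376, 334 and 292 CPM in WT and to 567, 498 and 364 CPM in KO. None of the 10 was at 0 in any library, and their part in the level of Ccr7 was not tested. The count ratio of Ccr7 to Ccr8, which needs no scaling between libraries and was chosen after the values were seen, was 8.95, 9.90 and 6.67 in WT and 34.1, 18.3 and 11.3 in KO. Since Ccr8 alone separates the genotypes, this ratio is a description, and its exact permutation p of 0.1 is no separate support.

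CXCR5 binds CXCL13 and marks follicular T cells and B cells. Cxcr5 (ENSMUSG00000047880.15, chromosome 9, 44511787 to 44561877, minus strand) stood at 93.5, 94.5 and 69.5 CPM in WT and at 66.4, 82.1 and 59.0 CPM in KO. KO replicates 1 and 3 lay below all WT libraries, and KO replicate 2 lay inside their range. Cxcr5 differed by -0.31 on the log2 scale (SE 0.18, interval -0.75 to 0.12, edgeR adjusted p = 0.9999), and by -0.19 and -0.15 within sets A and B. Relative to the summed Treg markers the difference of Cxcr5 was 0.22, below the 0.535 of the median gene on that scale. Of 8 follicular helper T cell markers 5 had lower means in KO, 0 were called and their sum was 374 to 424 CPM in WT and 289 to 383 CPM in KO. Of 12 B cell markers 11 had higher means in KO and none was at 0 in any library, with a sum of 139 to 1213 CPM in WT and 596 to 760 CPM in KO. WT replicate 2, with the highest sum of B cell markers, also had the highest Cxcr5 and Ccr6. KO replicate 1, with the next highest sum, had the lowest Ccr6, and WT replicate 1, with a sum of 215 CPM, had nearly as much Cxcr5 as WT replicate 2. The part of B cells in these levels was not tested. Cxcr5 shares 110 exon bases with Bcl9l on the opposite strand, and whether strand was used in counting was not given in the sources used here.

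CXCR4 binds CXCL12 and holds lymphocytes in bone marrow. Cxcr4 (ENSMUSG00000045382.6, chromosome 1, 128588199 to 128592293, minus strand) was the steadiest of the 9 receptors, at 14.8, 11.4 and 15.2 CPM in WT and 14.6, 13.6 and 12.8 CPM in KO. All KO libraries lay inside the WT range. The log2 difference was -0.02 (SE 0.22), with an interval from 0.688 to 1.42 for the fold of KO over WT, and it was 0.06 and -0.16 within sets A and B. Relative to the summed Treg markers the log2 difference was 0.52, close to that of the median gene on that scale.

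**Figure D4:**
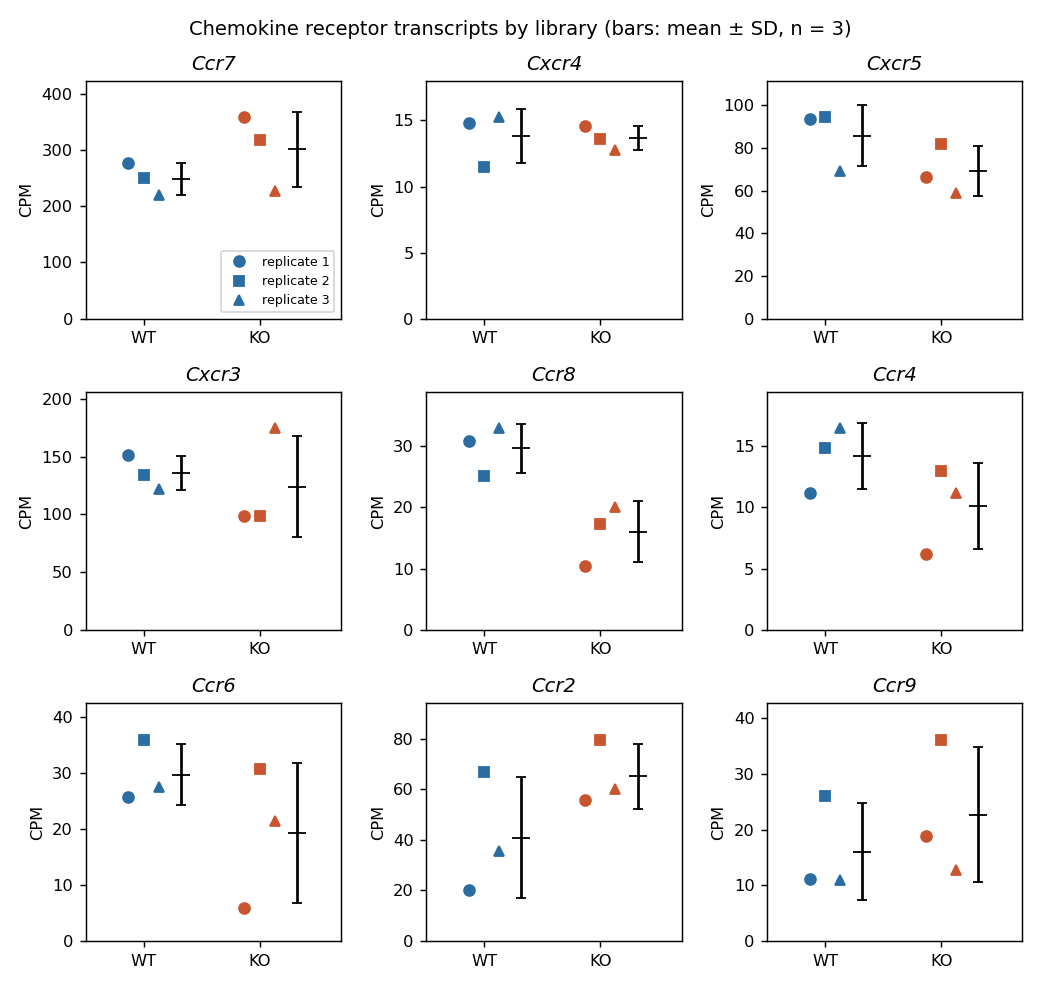
CPM of each receptor in each library, on axes that start at 0, with symbols for replicate numbers (circle 1, square 2, triangle 3) and bars for mean ± SD of 3 libraries. In Ccr4, Ccr6 and Ccr8 the lowest point is KO replicate 1, and in Ccr2 and Ccr9 the highest is KO replicate 2.

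Ccr2 and Ccr9 had higher means in KO and a wide spread within each genotype. CCR2 binds CCL2 and is carried by monocytes as well as by activated T cells. Ccr2 (ENSMUSG00000049103.14, chromosome 9, 124101950 to 124113557, plus strand) stood at 20.0, 66.9 and 35.6 CPM in WT and at 55.6, 79.7 and 59.9 CPM in KO. WT replicate 2 lay among the KO libraries, and KO replicate 2 above all the others. The log2 difference was 0.67 (SE 0.41, interval -0.31 to 1.65, edgeR adjusted p = 0.9999). It was 1.23 without WT replicate 2 and 0.345 without WT replicate 1, and 1.11 and 0.69 within sets A and B. Of 14 myeloid markers all 14 had higher means in KO and 0 were called, with sums of 377, 1311 and 186 CPM in WT and 1038, 1414 and 577 CPM in KO. Cd14 was at 0 in WT replicate 3, and Lyz2, the lysozyme gene of monocytes and macrophages, stood at 258.9 ± 272.3 CPM in WT and 439 ± 215 CPM in KO. WT replicate 3 had the lowest sum of myeloid markers and a higher Ccr2 level than WT replicate 1. The part of myeloid cells in the level of Ccr2 was not tested.

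CCR9 binds CCL25 and takes lymphocytes to the small intestine and thymus. Ccr9 (ENSMUSG00000029530.16, chromosome 9, 123678439 to 123784330, plus strand) stood at 11.1, 26.1 and 10.9 CPM in WT and at 18.9, 36.2 and 12.8 CPM in KO. WT replicate 2 and KO replicate 2 were the highest of their groups. The log2 difference was 0.50 (SE 0.50, interval -0.68 to 1.67, edgeR adjusted p = 0.9999), 1.06 and 0.50 within sets A and B, -0.016 without KO replicate 2 and 1.04 without WT replicate 2. The order of the 6 libraries by Ccr9 was the same as their order by the sum of myeloid markers, a match that was not among the planned comparisons. Their order by the sum of plasmacytoid dendritic cell markers was not the same, with WT replicate 2 highest. The 8 plasmacytoid dendritic cell markers summed to 70.6, 411 and 66.4 CPM in WT and to 237, 303 and 241 CPM in KO, with 7 of 8 higher in KO by their means, 0 called and Cd300c at 0 in WT replicate 3. Of these, Siglech, a receptor that defines plasmacytoid dendritic cells, stood at 4.36 ± 3.46 CPM in WT and 16.99 ± 10.9 CPM in KO without overlap, as 3.68% of all genes in that direction, and is named after its values were seen. Ly6d, Irf8 and Tcf4, the most abundant of the 8 by mean, stood at 178, 107 and 58.4 CPM in WT replicate 2. That library also had the highest sum of B cell markers, and the part of B cells in the sum of the 8 was not tested. Of 6 thymocyte markers 2 passed the filter and 0 were called. Cd8b1, which CD8 T cells also express, stood at 16.8 ± 10.2 CPM in WT and 18.6 ± 3.26 CPM in KO, and Dntt, which adds bases where receptor genes are joined, at 1.33 ± 0.818 and 3.43 ± 3.29 CPM, highest in KO replicate 1 at 7.16 CPM. Rag1, which immature thymocytes need to rearrange their receptor genes, was at 0 in all 6 libraries. Rag2 and Arpp21 were at 0 in some libraries, and Ptcra had between 1 and 8 counts in each. The part of such cells in the level of Ccr9 was not tested. Ccr9 shares 1932 of its exon bases (18.8%) with AC165425.1 on the opposite strand and 269 with Gm17200 on the same strand, so its counts are uncertain.

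**Figure D5:**
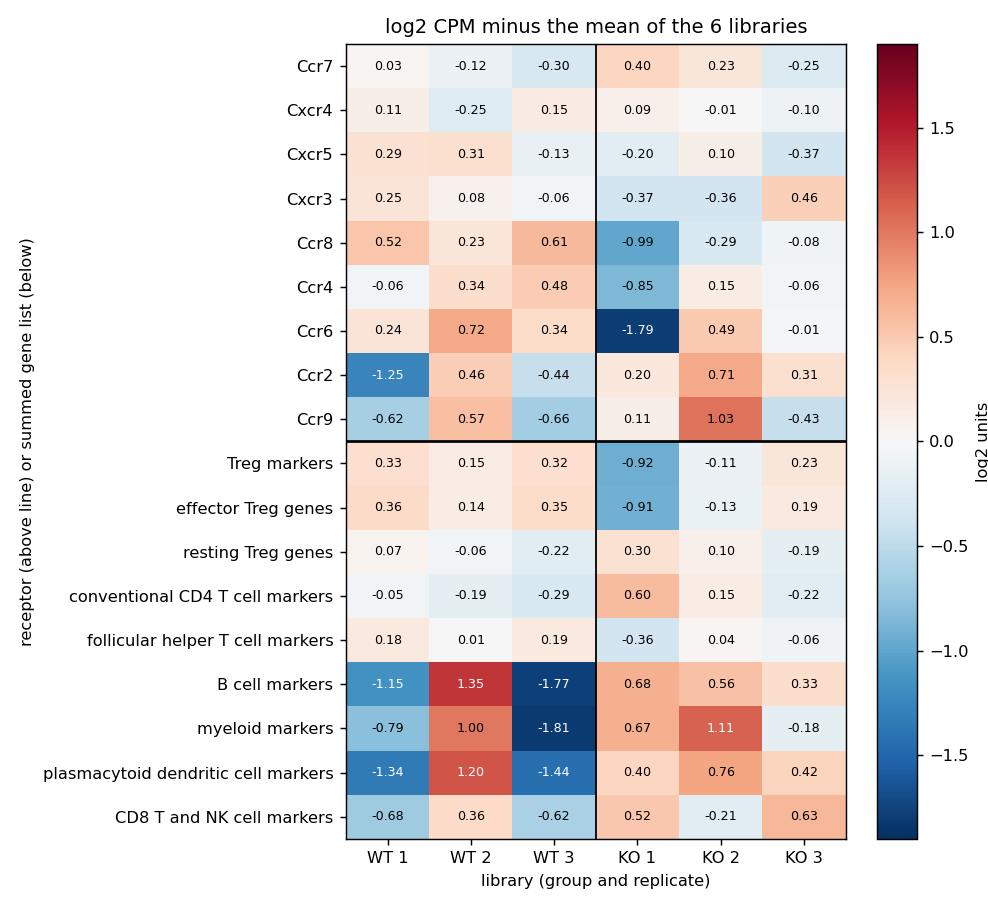
Log2 CPM minus the mean of the 6 libraries for each receptor (above the line) and for the summed CPM of each marker list (below it), with WT libraries on the left and KO on the right and colour and number for the value. Ccr8, Ccr4 and Ccr6 are lowest in KO replicate 1 (-0.99, -0.85 and -1.79), as are the Treg markers (-0.92), and Ccr9 is highest in KO replicate 2 (1.03), as are the myeloid markers (1.11).

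The 9 receptors were set beside the other chemokine receptors. Of 15 others 12 passed the filter on low counts, 0 were called by edgeR or DESeq2, and 6 had higher and 6 lower levels in KO (median of their log2 differences -0.001). The most abundant by CPM was Cxcr6, the receptor for CXCL16 on activated T cells, at 58.2 ± 24.5 CPM in WT and 81.8 ± 33.6 CPM in KO (log2 difference 0.49, SE 0.41). Ccr1 (11.1 ± 9.97 and 13.4 ± 5.18 CPM) and the neutrophil receptor Cxcr2 (10.1 ± 10.3 and 10.2 ± 10.3 CPM) followed. None of the 12 had groups without overlap.

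Of the 16 ligands of the 9 receptors 6 passed the filter and 0 were called, with 3 higher and 3 lower means. Cxcl10 was the most abundant, followed by Ccl25 at 5.21 ± 3.50 CPM in WT and 4.89 ± 1.62 CPM in KO. Ccl7, Ccl8 and Ccl21a had no count in any library. Of 19 genes of the G proteins and the machinery of migration, 0 were called, 8 had higher and 11 lower levels in KO, and their median was -0.04 on the log2 scale. The actin regulator Coro1a (1825 ± 98.8 and 1756 ± 55.4 CPM), the GTPase Rac2 (1671 ± 4.15 and 1623 ± 151 CPM) and the exchange factor Dock2 (302 ± 10.8 and 338 ± 38.3 CPM) were among the most abundant, and all overlapped between genotypes.

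Of 14 genes that end receptor signals, kinases of the GRK family, arrestins and RGS proteins, 0 were called, 9 had lower and 5 higher means, and the median was -0.11. Rgs10, which speeds up the shut-off of inhibitory G proteins, stood at 156, 154 and 168 CPM in WT and at 118, 131 and 140.4 CPM in KO. Its groups did not overlap, as for 4.07% of all genes in that direction. The log2 difference of Rgs10 was -0.30 (SE 0.11), and it was not called. Its edgeR p was 0.0341 before adjustment, where 2.88% of all genes had an unadjusted p under 0.05. Rgs1, a related regulator, stood at 145 ± 22.5 CPM in WT and 96.5 ± 40.0 CPM in KO, and the kinase Grk2 at 159 ± 20.4 and 145 ± 23.9 CPM. Of 10 other homing receptors and regulators 0 were called and 7 had lower means, with a median of -0.02. S1pr1, which lets T cells leave lymph nodes, stood at 165 ± 35.0 CPM in WT and 162 ± 45.4 CPM in KO.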

How the data were processed

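For each of the 6 libraries the authors deposited raw counts of reads per Ensembl gene. The submitters' processing notes name bcl2fastq (2.19.0.316), STAR (2.3), featureCounts and the build mm10. Annotation release and strand setting were not given in the sources used here. No molecular identifiers are named in the labels, so copies made by PCR count as reads. Symbols, positions and exon lengths came from GENCODE M21 on GRCm38, the assembly of mm10, with 53274 of 53379 identifiers matched. Libraries were grouped by title.

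All genes were fitted with edgeR 4.0.16 (filterByExpr, TMM, robust quasi-likelihood, two-sided F test, Benjamini-Hochberg adjustment, threshold 0.05), in R 4.3.3. Intervals at 95% and standard errors come from that fit. Profiles used log2(CPM + 0.5), and the values within sets A and B are differences of its means. Log2 differences relative to the summed Treg markers are differences of mean log2 ratios. They can depart from the ratio of the printed means. Alternatives were DESeq2 1.42.0, its size factors, limma-voom 3.58.1 with and without quality weights, other filters, a replicate block, a term for the number in the table names and leaving out each library. Libraries of a group varied by 51.0% (the square root of edgeR's common dispersion). Of the 50-base windows of the receptors' transcripts, 20.1% in Ccr9, at most 1.91% in Ccr2, Ccr4 and Cxcr5 and 0% in the other 5 also occur in another gene's transcript.

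The receptors and gene lists were chosen with earlier results of these data known. Named genes were the 9 receptors, Junb, up to 4 genes per list by mean CPM, and up to 3 genes nearest to a receptor by root mean square difference of profiles. Foxp3, Siglech, Nkg7, Cd40lg and the genes shared by 2 lists fall outside this rule or were named after their values were seen. The same holds for the genes named as being at 0.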

Additional observations from a re-analysis of the deposited data

How the results depend on the processing

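Under the 14 alternatives that gave a test (edgeR, limma-voom or DESeq2) 0 of the 9 receptors were called. Ccr2, Ccr4, Ccr6, Ccr7 and Ccr8 kept their direction in these. Relative to the summed Treg markers, a scale with no adjusted p, the median gene had a difference of 0.535. That Ccr2 and Ccr7 stayed above 0 there is therefore no separate support. On that scale Ccr6 and Ccr8 were at -0.37 and -0.40, and Ccr4 was at -0.002. Over all genes DESeq2 called 63 where edgeR called 0 (590 at an unadjusted p under 0.05) and limma-voom 0 (750 unadjusted). When 1 library was left out, Cxcr4 ranged from -0.14 to 0.053 (above 0 without WT replicate 1 or 3 or KO replicate 3), Cxcr3 from -0.47 to 0.008 (above 0 without KO replicate 1 or 2), Ccr9 from -0.016 to 1.04 and Ccr8 from -1.09 to -0.67. Relative to the summed Treg markers, an alternative chosen after seeing the data, the differences of Cxcr3, Cxcr4 and Cxcr5 were 0.35, 0.52 and 0.22. They lie below the 0.535 of the median gene on that scale, so their sign is not read as a reversal. Between 5 and 9 receptors kept their WT rank when 1 WT library was left out. With the replicate number as a block Ccr8 was at -0.93 and 0 genes were called. Same-numbered libraries correlated at -0.12, 0.256 and 0.0696 in their deviations from the group means, and differently numbered ones at -0.262 to 0.181. With 3 libraries per group these values cannot tell whether the numbers pair the libraries. The spread between libraries, with 3 per genotype, limited the comparisons.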

Other observations

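Genes most like the other receptors in their profile over the 6 libraries are given as values with no reading of shared function. The nearest to Ccr2 was Atf6, a sensor of the unfolded protein response (root mean square difference 0.157, where Ccr2 spread by 0.66), and the nearest to Ccr9 was the aldehyde dehydrogenase gene Aldh2 (0.111, where Ccr9 spread by 0.633). Ccr9 was next followed by Kremen1 (0.127) and the lysosomal protease gene Lgmn (0.147). The nearest to Ccr6 was the exonuclease gene Dis3l (0.16, where Ccr6 spread by 0.83), the nearest to Cxcr3 was the ubiquitin ligase gene Pja2 (0.0554, spread 0.302), and the nearest to Ccr7 was Nom1 (0.0677, spread 0.253). Each profile was compared over 6 libraries with 10202 genes.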
